A study of Mus musculus with 24 samples.

Results

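The signal transducer STAT5 and a set of its target genes were followed in mouse bone marrow cells given vitamin C. The set held 10 genes of 22371 in the RNA table: the cytokine gene Osm, the factor genes Stat5a and Stat5b, the feedback inhibitors Cish, Socs1, Socs2 and Socs3, the kinase gene Pim1, the survival gene Bcl2l1 and the milk protein gene Csn2. They were taken by name for their link to STAT5, and Csn2 and Osm were chosen by their RNA read counts and RPKM in these same libraries. Each gene's listed peaks and methylation regions within 50 kb of its span were added. The RNA differences of the set are therefore given as a description.

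STAT5 is carried by 2 neighbouring and closely related genes, Stat5a and Stat5b. When a cytokine such as IL-3 binds its receptor, the attached Janus kinase 2 (JAK2) phosphorylates STAT5, which pairs up, enters the nucleus and binds DNA at a short palindrome, TTCNNNGAA. Among its best known targets are genes whose products act back on the receptor and its kinase (CIS, encoded by Cish, and the SOCS proteins), genes that keep blood cells alive and dividing (Pim1, Bcl2l1) and, in the mammary gland under prolactin, the β-casein gene Csn2. Osm encodes oncostatin M, a cytokine of the IL-6 family that blood cells make after STAT5 activation.

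The vitamin C library and the untreated library both came from bone marrow cells immortalized with HOXA9 that carry a vector for IDH1 R132H, a mutant form of isocitrate dehydrogenase 1 found in leukaemia. The treated cells were brought to 0.345 mM vitamin C at 0, 24 and 48 h and harvested at 72 h, while the harvest time of untreated cells was not stated. All cells grew in murine IL-3 at 6 ng/ml, human IL-6 at 10 ng/ml and murine SCF (stem cell factor) at 20 ng/ml, so an activator of STAT5 was present in both conditions. Beside polyA RNA, the study mapped H3K4me3, H3K27ac and H3K4me1 (histone marks of promoters, active elements and enhancers), the factors PU.1 and Runx1, and DNA methylation by antibody capture (MeDIP), by capture of hydroxymethylated DNA (hMeDIP) and by whole-genome bisulfite sequencing (WGBS). One list of MeDIP regions is named mutant MeDIP iMR by the authors and is attached to the sample of untreated cells with a vector for wild-type IDH1. Every condition had 1 library per assay, so no difference has a replicate check and no p-value is given between conditions. How many cultures or clones stood behind a library was not stated.

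The vitamin C RNA library held 111453443 counted reads and the untreated library 86804487. A gene was taken as measured at 1 RPKM (reads per kilobase of gene, scaled to the reads of the library) or more in 1 or both libraries, which 10436 genes reached, and as higher or lower when log2(RPKM + 0.5) differed by 2-fold or more. Myeloid progenitor genes were abundant in both libraries, with 130.6 RPKM of Mpo in the vitamin C library and 796.3 RPKM in the untreated library. By the 2-fold rule 3 of the 9 such markers were lower with vitamin C (Mpo, Prtn3 and Hoxa9), beside 1.92% of measured genes. In log2 change 8 of the 9 lay below zero and 1 above, Cd34, at 498.0 RPKM with vitamin C and 298.5 RPKM untreated. Whether Hoxa9 reads came from the immortalizing HOXA9 or from the cells' own gene was not determined. Mast cell and basophil markers summed to 2862 RPKM with vitamin C, against 2122 RPKM untreated. Most of both sums was Cpa3, within 2-fold at 2488 RPKM with vitamin C and 1863 RPKM untreated. Of 8 measured, 3 were higher (Ms4a2, Cma1 and Gata1), beside 2.38% of measured genes, and 5 stayed within 2-fold. In log2 change 7 lay above zero and 1 below, Prss34, while Fcer1a had 4 reads with vitamin C and 0 reads untreated. Of 9 lymphoid markers, 1 was measured, Lck, at 4.28 RPKM with vitamin C and 4.21 RPKM untreated. None of 9 mammary epithelium markers was measured: Krt8, Krt18, Krt14, Krt5, Epcam and Elf5 were at 0 in both libraries. The part of these marker shifts in the results below was not tested, and in bulk RNA fewer cells of a type cannot be told apart from less RNA per cell.

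The STAT5 palindrome was searched in the promoters, taken as 250 bases before to 50 after each RefSeq start on the GRCm38.p6 build (mm10). For 8 of the 10 genes 13 promoters were available, and those of Csn2, Cish and Socs3 held TTCNNNGAA, a motif that reads the same on both strands. They are shown because they carry the letters that STAT5 is known to bind, given in capitals, and because these 3 genes differ in what happened to their RNA. The Csn2 promoter is at chr5:87699376-87699675 on the minus strand, with TTCTTGGAA starting 93 bases before the start site. The Cish promoter is at chr9:107296409-107296708 on the plus strand, with TTCCTGGAA beginning on the first transcribed base and TTCTTGGAA 11 bases further on. The Socs3 promoter is at chr11:117969317-117969616 on the minus strand, with TTCTTAGAA starting 154 bases before the start.
Csn2: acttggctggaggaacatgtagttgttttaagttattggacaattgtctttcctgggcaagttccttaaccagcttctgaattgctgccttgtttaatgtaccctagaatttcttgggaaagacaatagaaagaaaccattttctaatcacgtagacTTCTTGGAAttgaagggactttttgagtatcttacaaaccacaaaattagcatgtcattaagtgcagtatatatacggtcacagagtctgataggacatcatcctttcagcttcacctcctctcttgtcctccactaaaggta
Cish: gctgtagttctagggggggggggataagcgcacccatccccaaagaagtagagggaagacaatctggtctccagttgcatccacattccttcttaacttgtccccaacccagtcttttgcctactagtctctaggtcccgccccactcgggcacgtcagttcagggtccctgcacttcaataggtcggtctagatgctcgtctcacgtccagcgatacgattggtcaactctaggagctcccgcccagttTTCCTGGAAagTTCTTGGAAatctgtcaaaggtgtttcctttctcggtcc
Socs3: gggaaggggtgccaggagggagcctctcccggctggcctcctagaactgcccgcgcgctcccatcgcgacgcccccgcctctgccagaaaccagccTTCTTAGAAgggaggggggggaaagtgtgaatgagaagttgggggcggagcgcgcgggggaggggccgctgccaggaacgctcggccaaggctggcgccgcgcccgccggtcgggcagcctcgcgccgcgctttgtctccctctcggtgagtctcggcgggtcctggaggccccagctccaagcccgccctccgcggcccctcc
Among all 32851 promoters of this length 8.3% held the motif, and among promoters of genes at 1 RPKM or more 7.04% did. Holding it 2 or more times, as Cish did, was rarer, at 0.457% of promoters. A match is a description of these letters and not a measured binding site, since STAT5 itself was not mapped. RNA of Csn2 was lower with vitamin C, past the 2-fold bound. RNA of Cish and Socs3 stayed within it, at ratios of 1.10 and 1.79, both above 1. Since Csn2 was chosen by its RNA values in these libraries, its difference from the other 2 is a description and says nothing about the motif.

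Across the 10 genes 1 was higher with vitamin C (Osm), 1 was lower (Csn2) and 8 stayed within 2-fold. Over all measured genes 2.38% were higher and 1.92% lower by the same rule. The median log2 change was 0.07 over the 10 genes and -0.04 over all measured genes, with 6 of the 10 above zero and 4 below. With a bound of 1.5-fold, Socs3 joined Osm and Socs2 joined Csn2, beside 6.21% of measured genes higher and 6.64% lower.

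**Figure D1:**
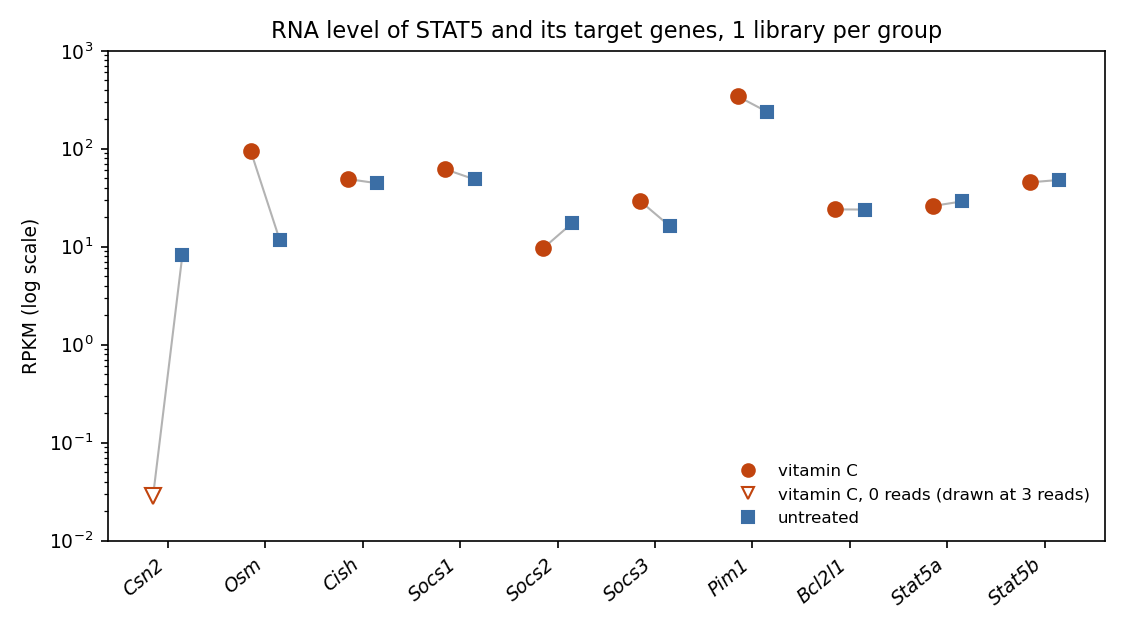
RNA level of the 10 genes in RPKM on a log axis, with the vitamin C library on the left of each pair (circles) and the untreated library on the right (squares). Csn2 had no read with vitamin C and is drawn at the level of 3 reads, 0.0288 RPKM (open triangle); Osm is the only other gene whose symbols lie far apart, at 95.8 RPKM with vitamin C and 11.6 RPKM untreated.

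Osm, the one secreted signal in the set, was at 95.8 RPKM (20221 reads) in the vitamin C library and at 11.6 RPKM (1923 reads) in the untreated library. The ratio was 8.23, with an exact 95% interval of 7.85 to 8.63 that, like those that follow, covers counting error only. Reads are not independent molecules, so even that error may be larger than the interval allows. Its level exceeded that of 93.1% of measured genes with vitamin C and of 41.4% untreated. The authors' deposited list of higher genes, which holds 450 genes or 2.01% of the table, includes it.

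The factor genes differed little. Stat5a was at 26.0 RPKM with vitamin C and 29.0 RPKM untreated, a ratio of 0.897 (0.878 to 0.917). Stat5b was at 45.4 RPKM with vitamin C and 48.0 RPKM untreated, a ratio of 0.945 (0.927 to 0.963). Both were slightly below the untreated level, and Stat5b was the more abundant of the pair per length in both libraries. The 2 genes are near-identical over long stretches and how shared reads were counted was not stated, so the division of reads between them is uncertain.

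The feedback inhibitors moved in different directions. Cish, whose product CIS occupies STAT5 docking sites on the receptor, was at 49.0 RPKM with vitamin C and 44.4 RPKM untreated, a ratio of 1.10 (1.08 to 1.12). Socs1, which encodes a direct inhibitor of Janus kinases, was at 61.6 RPKM with vitamin C and 48.6 RPKM untreated, a ratio of 1.27 (1.22 to 1.32). Both stayed well inside the 2-fold bound. Socs3, whose product blocks signalling from the shared IL-6 family receptor gp130, was at 29.1 RPKM (7821 reads) with vitamin C and 16.3 RPKM (3419 reads) untreated, a ratio of 1.79 (1.72 to 1.86). Socs2, best known as the brake on growth hormone signalling, was at 9.58 RPKM (8487 reads) with vitamin C and 17.4 RPKM (12056 reads) untreated, 1.82-fold lower. These were the 2 genes nearest to the 2-fold bound, on opposite sides of zero. The authors' deposited list of higher genes includes Socs3, and their list of lower genes, 221 genes or 0.988% of the table, does not include Socs2.

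The growth and survival targets lay far apart in level. Pim1, a serine/threonine kinase that promotes survival of cytokine-dependent cells, was the highest of the set at 342.3 RPKM with vitamin C and 238.2 RPKM untreated, a ratio of 1.44 (1.42 to 1.46). Bcl2l1, which encodes the anti-apoptotic protein BCL-XL, was at 24.0 RPKM with vitamin C and 23.9 RPKM untreated. Its ratio of 1.00 (0.975 to 1.03) had the only interval among the 10 genes that includes equality.

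Csn2, the β-casein gene, had 0 reads with vitamin C and 666 reads untreated, which is 8.17 RPKM. Drawn at the floor of 3 reads, or 0.0288 RPKM, its level was about 283-fold lower with vitamin C, with the untreated count taken as exact. The exact 95% interval of its ratio reaches up to 0.00435, or 230-fold lower. The authors' deposited list of lower genes includes it. Of 10731 genes with 100 or more untreated reads, 9 had 3 or fewer reads with vitamin C, and 6 of those had none (Arhgap32, Armcx2, Csn2, Igf2bp3, Pdlim1 and Tmem98). Csn2 had the most untreated reads of the 9, and its 8.17 RPKM compares with 0.358 to 2.01 RPKM for the other 8. In the opposite direction, 2 of 10791 genes had 100 or more reads with vitamin C and 3 or fewer untreated, Cxcl3 and Il7r.

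The other genes of the casein cluster on chromosome 5 were almost silent. Csn1s2a, 75021 bp from Csn2, had 0 reads with vitamin C and 22 reads untreated, and Csn1s1, 10041 bp away, had 0 reads with vitamin C and 2 reads untreated. Csn1s2b and Csn3 had 0 reads in both libraries. Of the milk protein genes elsewhere, Wap had 0 reads with vitamin C and 2 reads untreated, while Lalba and Glycam1 had 0 reads in both. The 1 measured gene of this list was Xdh, which encodes xanthine dehydrogenase, an enzyme also made outside the mammary gland. It was at 3.69 RPKM with vitamin C and 1.67 RPKM untreated, a ratio of 2.21 (2.00 to 2.44) that stays inside the 2-fold bound on the scale of RPKM + 0.5. With a pseudocount of 0.1 it passes, and the authors' deposited list of higher genes includes it.

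The rest of the pathway was read from 6 lists of ligands, receptors, kinases and other STATs, inhibitors and adaptors, further STAT5 targets and milk proteins. Of their 95 genes 60 were measured, of which 5 were higher with vitamin C, 4 were lower and 51 stayed within 2-fold, with a median log2 change of 0.05. Over all measured genes 2.38% were higher and 1.92% lower, and with no replicates or test these counts are a description. The genes past the bound came from the lists of ligands, receptors and further targets, and none from the lists of Janus kinases and other STATs, of inhibitors and adaptors or of milk proteins.

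**Figure D2:**
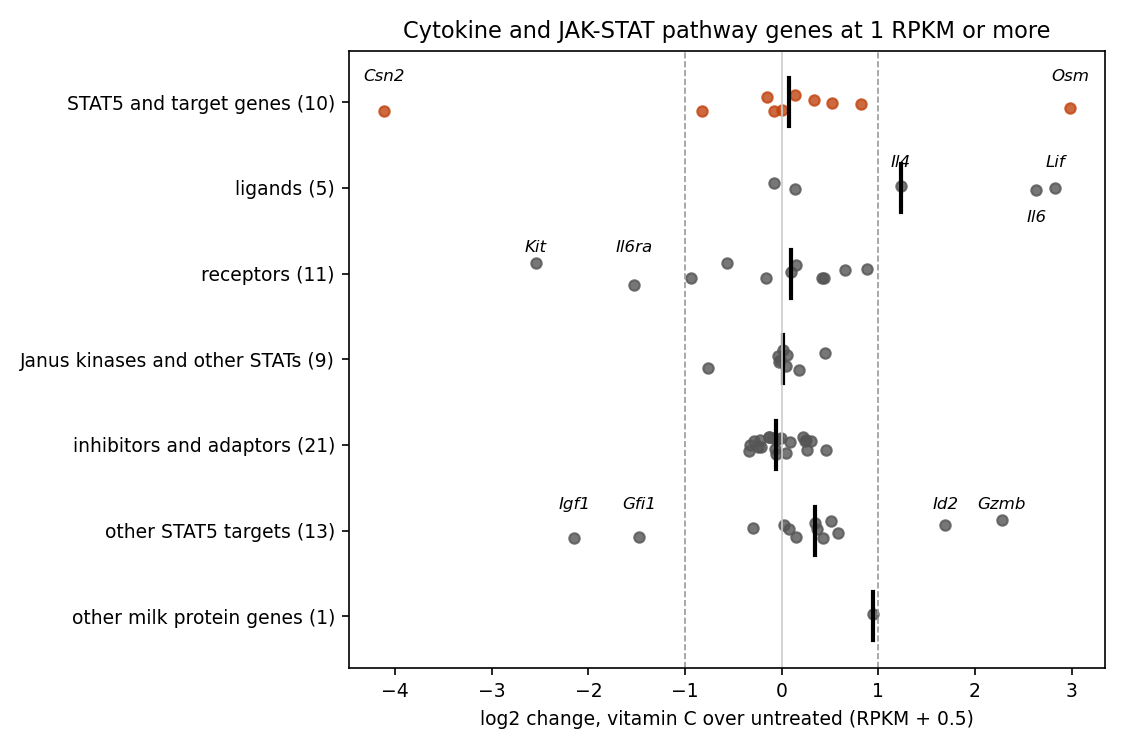
The log2 change of RPKM + 0.5, vitamin C over untreated, for each measured gene (points) of the 10 STAT5 genes and 6 pathway lists, with the number measured in brackets, the median as a black bar and the 2-fold bounds dashed. Kinases, STATs, inhibitors and adaptors lie inside the bounds, and the genes outside them are named.

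Among the ligands 3 of 5 measured genes were higher and none lower, with a median log2 change of 1.23. Lif, encoding leukaemia inhibitory factor, was at 47.4 RPKM with vitamin C and 6.23 RPKM untreated, 7.61-fold higher. Lif lies within 50 kb of Osm, which was 8.23-fold higher, and a part of their closeness in these values was not tested. Il6 was at 45.4 RPKM with vitamin C and 6.90 RPKM untreated, 6.58-fold higher. Oncostatin M, LIF and interleukin 6 all signal through gp130, but the receptor genes for them were low. Il6st, which encodes gp130, was at 0.337 RPKM with vitamin C and 0.918 RPKM untreated, and Il6ra was at 0.293 RPKM with vitamin C and 1.79 RPKM untreated. Osmr had 0 reads in both libraries, and Lifr had 0 reads with vitamin C and 2 reads untreated. Il4, at 1.22 RPKM with vitamin C and 0.233 RPKM untreated, rests on 139 reads with vitamin C and 21 reads untreated. Il3 had 2 reads with vitamin C and 0 reads untreated, which is under the floor of 3 reads in both.

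Receptor genes gave 0 higher and 2 lower of 11 measured, with a median log2 change of 0.10. The IL-3 receptor was abundant: its signalling subunit Csf2rb was at 469.8 RPKM with vitamin C and 347.0 RPKM untreated, and Csf2rb2, the related mouse β subunit specific for IL-3, was at 253.0 RPKM with vitamin C and 159.9 RPKM untreated. The binding subunit Il3ra was at 93.9 RPKM with vitamin C and 138.7 RPKM untreated, so the subunits differed in direction while staying within 2-fold. Csf2rb and Csf2rb2 are near-identical and their split is uncertain. Kit, the SCF receptor, was at 5.07 RPKM with vitamin C and 32.1 RPKM untreated, 6.32-fold lower. Il6ra was the other receptor gene past the bound. Within it, Csf2ra was at 25.9 RPKM with vitamin C and 13.8 RPKM untreated, and Csf3r at 8.38 RPKM with vitamin C and 16.5 RPKM untreated. The authors' deposited list of higher genes includes Csf2ra and Il7r, the latter below 1 RPKM in both libraries. Their list of lower genes includes Csf3r, Kit and Il6ra.

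No Janus kinase or other STAT gene of 9 measured passed the bound, and their median log2 change was 0.01. Jak2, the kinase of the IL-3 receptor, was at 45.2 RPKM with vitamin C and 33.0 RPKM untreated. Jak1 was at 43.7 RPKM with vitamin C and 44.1 RPKM untreated, and Stat3, the next gene to Stat5a, at 36.5 RPKM with vitamin C and 37.5 RPKM untreated. None of 21 inhibitors and adaptors passed it either, with a median of -0.06. Ptpn6, the phosphatase SHP-1 that dampens cytokine receptors, was the highest of them at 239.6 RPKM with vitamin C and 194.6 RPKM untreated.

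Of 13 further STAT5 targets measured, 2 were higher and 2 lower, with a median log2 change of 0.34. Gzmb, which encodes granzyme B, was at 76.8 RPKM with vitamin C and 15.5 RPKM untreated, and Id2, an inhibitor of basic helix-loop-helix factors, at 6.90 RPKM with vitamin C and 1.79 RPKM untreated. Gfi1, a transcriptional repressor of myeloid cells, was at 18.4 RPKM with vitamin C and 52.0 RPKM untreated. Igf1, the growth factor gene that growth hormone drives through STAT5 in liver, was at 0.382 RPKM with vitamin C and 3.40 RPKM untreated. The most abundant gene within 2-fold was Myc, a growth-promoting transcription factor, at 203.4 RPKM with vitamin C and 250.6 RPKM untreated. The cyclin gene Ccnd3 was at 172.0 RPKM with vitamin C and 115.0 RPKM untreated, while Ccnd1 was not measured, with 1 read with vitamin C and 0 reads untreated.

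Peaks within 50 kb were then counted. Every window but that of Socs2 holds other coding genes, so a peak in it cannot be assigned to the named gene by position. Around 9 of the 10 genes both libraries listed H3K4me3, H3K27ac and H3K4me1 peaks, and Csn2 was the exception. For peaks and methylation regions, shares and medians of measured genes are over the 9854 that matched a RefSeq protein-coding gene. Of these, 99.8% had an H3K4me3 peak that near in each library. For H3K27ac it was 99% with vitamin C and 99.1% untreated, and for H3K4me1 94.2% with vitamin C and 98% untreated. Taken once each, since Stat5a and Stat5b share much of a window, there were 121 H3K4me3 peaks with vitamin C and 123 untreated, and 97 H3K27ac peaks with vitamin C and 95 untreated. Of the vitamin C H3K4me3 peaks 90.9% (84.3 to 95.4, exact 95% interval) overlapped an untreated peak by 1 bp or more, against 85.7% over the whole list, and of the untreated ones 88.6% (81.6 to 93.6) overlapped a vitamin C peak, against 90.5%. Of the vitamin C H3K27ac peaks 86.6% (78.2 to 92.7) did, against 88.8% over the list, and of the untreated ones 89.5% (81.5 to 94.8), against 86.6%. Sharing near the 10 genes was thus close to that of the lists as a whole.

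H3K4me1 peaks numbered 49 with vitamin C and 56 untreated, of which 57.1% (42.2 to 71.2) of the vitamin C peaks overlapped an untreated one, against 57.5% over the list. Of the untreated H3K4me1 peaks 48.2% (34.7 to 62.0) overlapped a vitamin C one, against 41.1%. Runx1 peaks numbered 17 with vitamin C and 16 untreated, and 64.7% (38.3 to 85.8) of the vitamin C peaks overlapped an untreated one, against 50.7% over the list. Of the untreated Runx1 peaks 68.8% (41.3 to 89.0) overlapped a vitamin C one, against 81.8%. In both libraries 8 of the 10 genes had a Runx1 peak, beside 76.6% of measured genes with vitamin C and 56.1% untreated. PU.1 peaks numbered 41 with vitamin C and 96 untreated, and each of the 10 genes had fewer with vitamin C. The whole PU.1 list was also shorter with vitamin C, at 23522 peaks against 61611 untreated, and a measured gene had a median of 2 PU.1 peaks with vitamin C and 6 untreated. Near the 10 genes 95.1% (83.5 to 99.4) of vitamin C PU.1 peaks overlapped an untreated one, against 95.2% over the list, and 41.7% (31.7 to 52.2) of untreated ones overlapped a vitamin C peak, against 36.1%. A PU.1 peak lay near 9 of the 10 genes with vitamin C, beside 87.7% of measured genes, and near all 10 untreated, beside 98.3%.

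**Figure D3:**
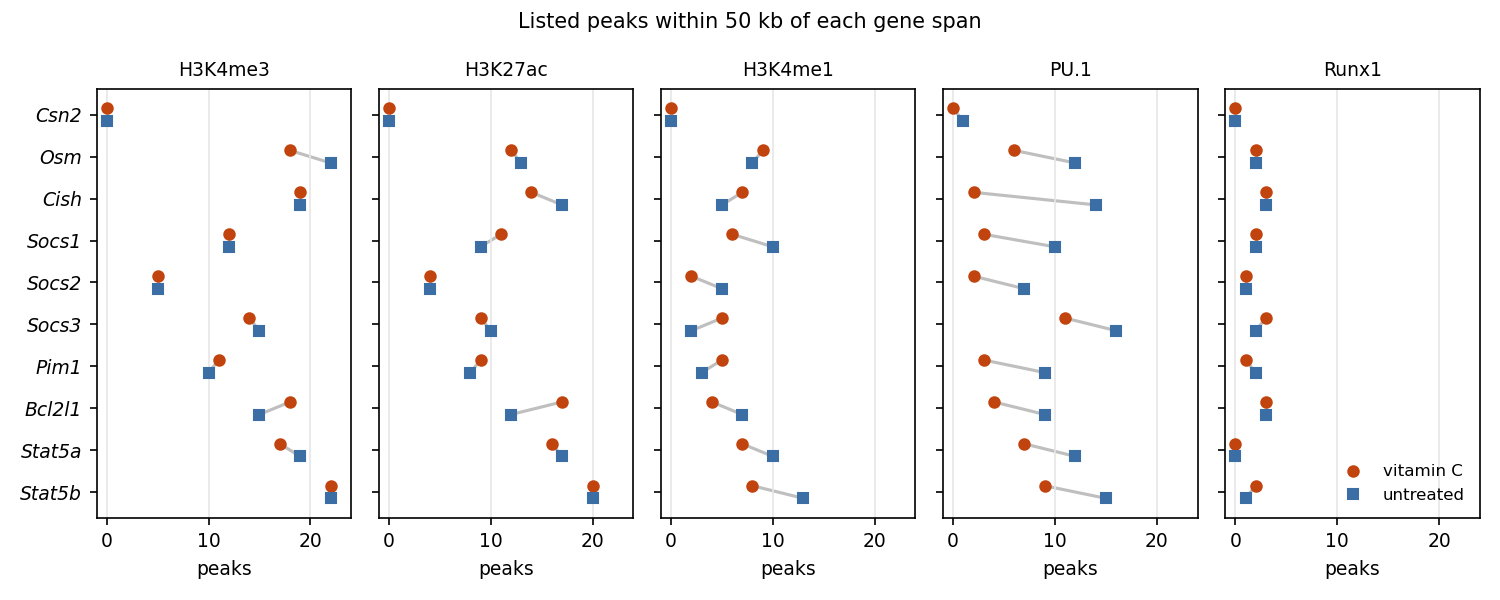
Listed peaks within 50 kb of each gene span, by mark or factor, with the vitamin C library (circles) above the untreated library (squares) in each row. Csn2 has none but 1 untreated PU.1 peak, and PU.1 is the panel in which every gene has fewer peaks with vitamin C.

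No H3K4me3, H3K27ac, H3K4me1 or Runx1 peak lay within 50 kb of Csn2 (chr5:87692619-87699429) in either library, although 666 reads were counted in it untreated. The nearest H3K4me3 peak was 843739 bp away with vitamin C and 843740 bp untreated, and the nearest H3K27ac peak 853844 bp with vitamin C and 853848 bp untreated. The nearest H3K4me1 peak was 78771 bp away with vitamin C and 78725 bp untreated, in both cases inside Csn1s2a. A PU.1 peak at chr5:87747727-87747994, 48298 bp from the gene, was listed untreated, and the nearest with vitamin C was 260626 bp away. Of 7993 matched protein-coding genes at 5 RPKM or more untreated, 10 (0.125%) had no H3K4me3 peak within 50 kb in either library. Of those 10, 9 (0.113% of the 7993) had no H3K27ac peak either. Besides Csn2 they included Eno1b, Eif3j2 and Amd2, which have close copies elsewhere in the genome, and Bex3 and Tceal9. No methylation region of any list lay within 50 kb of Csn2.

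H3K27ac peaks around Osm (chr11:4236785-4241026) covered 22763 bp with vitamin C and 20886 bp untreated, and were divided differently. A single vitamin C peak of 12144 bp, chr11:4226676-4238819, reached into the gene and stood in the top 1.19% of the vitamin C list by the authors' p-value or q-value (1.63e-246). Untreated, 5 separate peaks filled that stretch, the strongest at chr11:4234387-4238638, 4252 bp long and in the top 6.66% of its list. Elsewhere in the window the untreated peak could be the longer one, as at chr11:4222101-4224928, where vitamin C had 2 shorter peaks. Ranks in lists of different length describe each library and are not a measured change. The H3K4me3 peak at the lower-coordinate end of Osm, chr11:4234998-4238904, stood in the top 4.85% of the vitamin C list, and its untreated counterpart, chr11:4234857-4238986, in the top 30.1%. A further H3K27ac peak inside the gene, chr11:4239848-4240881, was listed with vitamin C and had no untreated counterpart.

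All 6 vitamin C PU.1 peaks around Osm overlapped 1 of the 12 untreated peaks. The strongest lay 40664 bp from the gene at chr11:4195618-4196121, in the top 2.03% of the vitamin C list, and at chr11:4195510-4196201 untreated, in the top 0.253%. A Runx1 peak at chr11:4217986-4218259 was listed with vitamin C alone, and one at chr11:4232645-4232874 untreated alone. Castor1, Lif and Tbc1d10a share this window, so a peak within it cannot be assigned to Osm by position.

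The authors' region names are kept as deposited, because neither the sign of the change nor the pair of libraries behind them was stated. The WGBS deMR at chr11:4240245-4240615 lay inside Osm and overlapped the H3K27ac peak that was listed with vitamin C alone. It also lay under H3K4me3 and H3K4me1 peaks of both libraries. MeDIP deMRs lay at chr11:4202001-4202500 and chr11:4233001-4233500, the second 3285 bp from the gene and under H3K27ac peaks of both libraries. Mutant MeDIP iMRs lay at chr11:4230001-4230250 and chr11:4230501-4231000, under the long vitamin C H3K27ac peak and also under untreated H3K27ac.

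**Figure D4:**
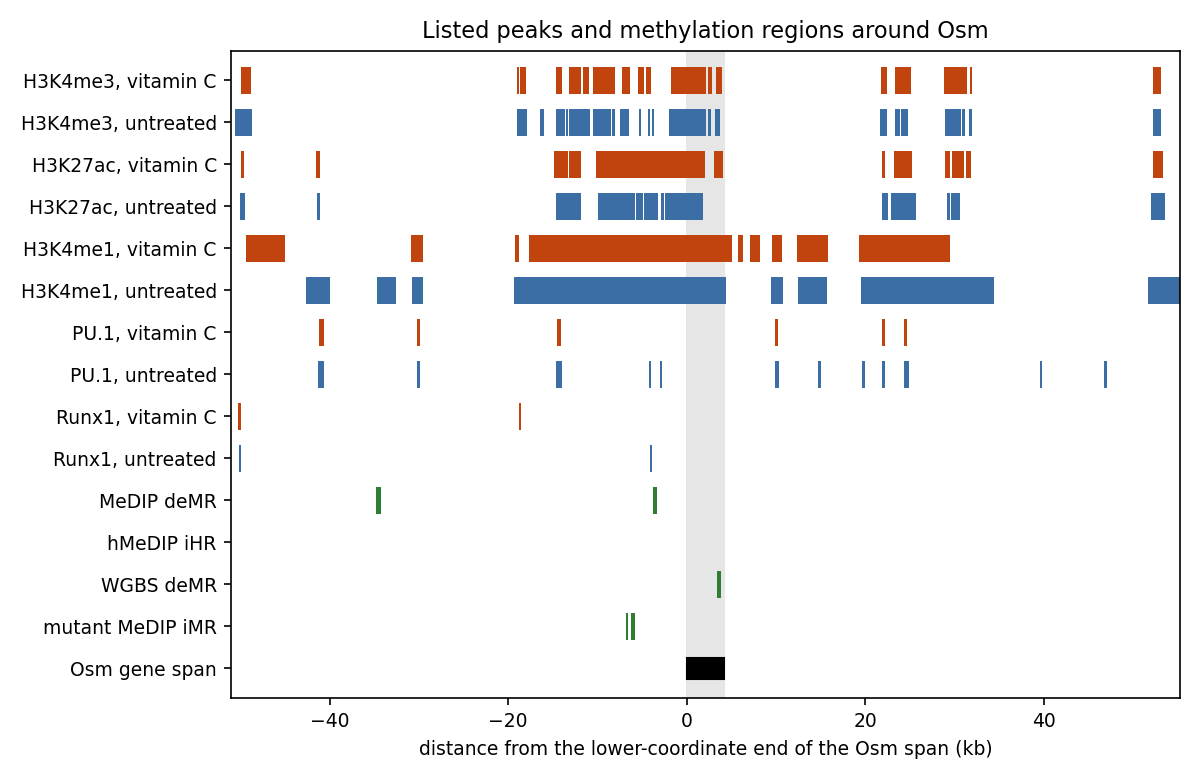
Peaks and methylation regions within 50 kb of Osm by distance in kb from the lower-coordinate end of the gene, with vitamin C rows (orange) above untreated rows (blue) for each mark and the region lists in green. The H3K27ac row shows 1 unbroken block of 12144 bp with vitamin C where the untreated row is split into 5.

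Near the factor genes the strongest H3K4me3 peak of both libraries was the same, over a start of Stat5b. It spanned chr11:100847366-100851594 with vitamin C, in the top 0.174% of the list, and chr11:100847437-100851613 untreated, in the top 2.59%. Stat5a has 2 annotated starts, chr11:100859656 and chr11:100860484. With vitamin C 1 H3K4me3 peak, chr11:100859667-100862638, began just past the first and covered the second. Untreated, chr11:100859580-100860156 covered the first and chr11:100860294-100862717 the second. Over the other annotated start of Stat5b an untreated PU.1 peak, chr11:100822468-100822775, was listed that had no vitamin C counterpart. H3K4me1 peaks around Stat5b covered 27578 bp with vitamin C and 67110 bp untreated.

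The 2 genes had the most listed regions of the set and share most of them. A MeDIP deMR (chr11:100832001-100832500) and an hMeDIP iHR (chr11:100825001-100826500) lay inside Stat5b, and the 1 MeDIP iMR near any of the 10 genes lay at chr11:100896001-100897000. WGBS deMRs inside Stat5b were at chr11:100804534-100804779 and chr11:100828930-100829084. Beyond Stat5a they were at chr11:100888395-100888730, chr11:100891866-100892105, chr11:100908682-100908872 and chr11:100931344-100931603. The middle pair overlapped the mutant MeDIP iMRs at chr11:100892001-100892500 and chr11:100908501-100909000, and the first of these sat in H3K4me3 and H3K27ac peaks of both libraries.

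The Cish start (chr9:107296659-107302784 for the gene) lay under H3K27ac peaks of both libraries. The H3K27ac peak over it was 20734 bp long with vitamin C, chr9:107294415-107315148, and 7376 bp untreated, chr9:107294458-107301833. In total, H3K27ac peaks in the window covered 50164 bp with vitamin C and 50945 bp untreated, so the extent differed little while the division into peaks did. PU.1 peaks numbered 2 with vitamin C and 14 untreated. The PU.1 peak over the first base of Cish, chr9:107296656-107296925, was listed untreated alone, and it covers both palindromes shown above. Runx1 peaks over the start were listed in both libraries, at chr9:107296503-107296803 with vitamin C and chr9:107296621-107296966 untreated. An hMeDIP iHR lay at chr9:107305501-107306000, 2717 bp past the gene, and a mutant MeDIP iMR at chr9:107273001-107274000.

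For Socs3 (chr11:117966079-117970336) the strongest Runx1 peak lay 2299 bp from the gene with vitamin C, at chr11:117963323-117963780. It was number 25 of 6250 by the authors' score, in the top 0.4%. Untreated, the overlapping peak was chr11:117963432-117963813, in the top 24.2% of a list of 3908. One H3K4me3 peak covered the start with vitamin C, chr11:117966287-117970671, whereas untreated the peaks chr11:117966311-117969169 and chr11:117969393-117970683 left a gap around it. H3K4me1 peaks numbered 5 with vitamin C and 2 untreated and shared no overlap. They covered 44759 bp with vitamin C, with 2 peaks over the gene, and 17028 bp untreated, with 0 over it. PU.1 peaks numbered 11 with vitamin C and 16 untreated, the strongest at chr11:117991702-117992216 with vitamin C and chr11:117991586-117992176 untreated. A MeDIP deMR at chr11:118019501-118020250 overlapped a mutant MeDIP iMR, chr11:118019501-118020500, and an hMeDIP iHR lay at chr11:118014001-118014750.

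Socs1 (chr16:10783808-10785536) had its strongest H3K27ac peak away from the gene in both libraries, at chr16:10767393-10777295 with vitamin C and chr16:10767411-10776939 untreated. Its strongest PU.1 peak, inside that stretch, was chr16:10770966-10771276 with vitamin C, in the top 9.42% of the list, and chr16:10770856-10771363 untreated, in the top 4.18%. A weak Runx1 peak over its start, chr16:10785472-10785652, was listed untreated alone. On the far side of that H3K27ac peak, WGBS deMRs at chr16:10756299-10756468 and chr16:10758502-10758990 flanked an hMeDIP iHR at chr16:10756501-10757000, and all 3 lay under H3K4me1 peaks of both libraries. A mutant MeDIP iMR lay at chr16:10751501-10752000. Another 6 coding genes share this window.

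Socs2 (chr10:95383903-95417321) had the fewest H3K4me3 and H3K27ac peaks after Csn2, with 5 H3K4me3 and 4 H3K27ac peaks in each library. Its strongest H3K4me3 peak was chr10:95394539-95396806 with vitamin C, in the top 4.4% of the list, and chr10:95394553-95396835 untreated, in the top 24.0%. WGBS deMRs lay at chr10:95371446-95371519, chr10:95389028-95389398 and chr10:95448074-95448192, the second inside the gene. An hMeDIP iHR at chr10:95407501-95408000 was also inside it, and a MeDIP deMR lay at chr10:95420184-95420684. No other coding gene lies in this window.

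Pim1 (chr17:29490785-29496111) carried a Runx1 peak over its start in both libraries, at chr17:29490149-29491103 with vitamin C and chr17:29490247-29491044 untreated. The untreated peak was number 20 of 3908 by the authors' score and the vitamin C peak number 158 of 6250. A broad H3K27ac peak ran from close to the start past the gene's end in both, 13247 bp with vitamin C and 13453 bp untreated, among the top 1.11% of the vitamin C list and the top 0.498% of the untreated list. The strongest PU.1 peak of its window was chr17:29528238-29528579 with vitamin C and chr17:29528083-29528649 untreated. MeDIP deMRs lay on both sides at chr17:29474001-29474500, chr17:29488001-29488500 and chr17:29511501-29512000. A WGBS deMR was at chr17:29512837-29513066, and a mutant MeDIP iMR at chr17:29442501-29443500.

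Bcl2l1 (chr2:152758732-152833803) held 5 of the 10 hMeDIP iHRs found, all inside its long span. The first, chr2:152771501-152772000, overlapped a WGBS deMR, chr2:152771576-152772023, and another deMR lay at chr2:152805092-152805454. The other iHRs were at chr2:152780501-152781000, chr2:152801501-152802000, chr2:152826501-152827000 and chr2:152829501-152830000, and 4 of the 5 lay under untreated H3K4me1 peaks. H3K4me1 in the window covered 12338 bp with vitamin C and 82591 bp untreated, and the untreated extent lay mostly in 1 peak of 56032 bp, chr2:152763277-152819308. Across the whole H3K4me1 lists peaks covered 108.4 Mb with vitamin C and 183.2 Mb untreated. The strongest H3K27ac peak lay inside the gene, at chr2:152787202-152792075 with vitamin C, in the top 0.395% of the list, and at chr2:152786905-152793427 untreated, in the top 0.663%. It held the strongest PU.1 peak of the window in both libraries, chr2:152788778-152789606 with vitamin C and chr2:152788746-152789725 untreated. H3K4me3 peaks over a start were chr2:152826333-152832176 with vitamin C and chr2:152824953-152832226 untreated. The RNA of Bcl2l1 was nearly equal in the 2 libraries.

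**Figure D5:**
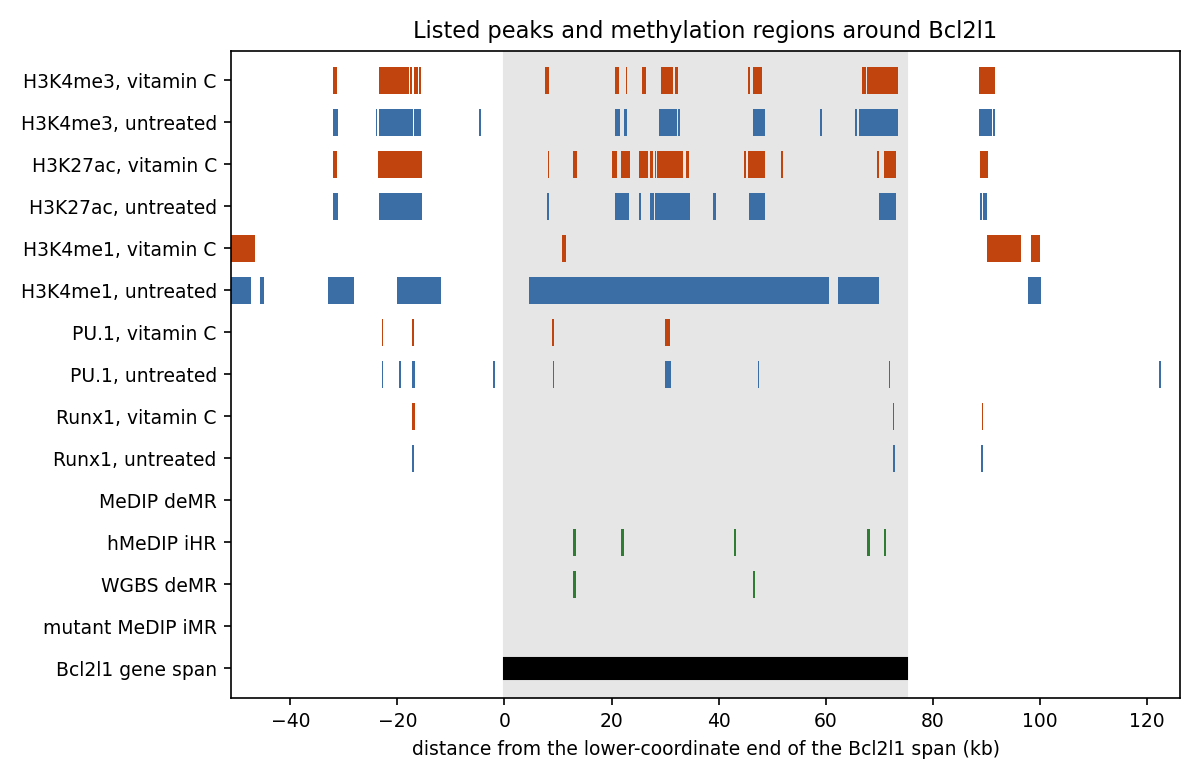
Peaks and methylation regions within 50 kb of Bcl2l1 by distance in kb from the lower-coordinate end of the gene, with vitamin C rows (orange) above untreated rows (blue) and region lists in green. All 5 hMeDIP iHRs lie inside the gene, 4 of them under the long untreated H3K4me1 peaks.

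Counted over the set, MeDIP deMRs lay within 50 kb of 6 of the 10 genes, as they did for 38.1% of measured genes, and WGBS deMRs within 50 kb of 7, beside 46.2% of measured genes. The hMeDIP iHRs were near 7 of the 10, beside 45.4%, and mutant MeDIP iMRs near 7, beside 39.3%. MeDIP iMRs were near 2, Stat5a and Stat5b through the same region, beside 21.3%. No WGBS iMR was near any of the 10, beside 26.6% of measured genes. Long genes and shared windows raise such counts, and with 10 genes they are a description.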

How the data were processed

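Per the submitters' processing notes, the build was mm10 and the tools were MACS2 2.1.0.2, Picard, SAMtools (0.1.16, 0.1.8 and 0.1.2), BWA, Novoalign 3.02.08 and CASAVA 1.8.2, with no role stated. Which program and annotation counted the RNA reads, and with which strand setting, was not given in the sources used here. Libraries were strand-specific, per the labels' protocols. The authors deposited a whole-number count and an RPKM value per Ensembl gene, which scales the count by gene length and library size, and 3 unnamed columns per RNA file were not used. A count of 0 stood beside an RPKM above 0 for 45 genes with vitamin C and 36 untreated. The histone lists that the authors deposited give each peak a p-value or q-value (which was not stated), and their PU.1 and Runx1 lists hold a score without a definition. Region lists hold positions alone. Of 24 samples, 18 have files used here. Genes were matched to symbols for 21611 of 22371 IDs, and spans come from RefSeq GRCm38.p6.

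Changes are differences of log2(RPKM + 0.5) between the libraries, for genes at 1 RPKM or more in 1 or both. Intervals are exact Clopper-Pearson 95% intervals of the read split, scaled by the reads per RPKM of each library. For a gene with 0 vitamin C reads and some untreated reads, a floor of 3 reads gave the fold value and the drawn level. The log2 changes kept the 0. For a simulated vitamin C and untreated pair, 95.9% of 2000 intervals held the true ratio. That pair was drawn with counting error only, which the intervals assume, so it checks the calculation and not the fit to real libraries. Peaks within 50 kb of a span were counted after removal of repeated intervals (259 and 337 in the vitamin C PU.1 and Runx1 lists, 1159 and 139 in the untreated ones), and 1 bp of overlap made peaks shared. Peak and WGBS lists were read as counting from 0 and MeDIP lists as counting from 1. Python 3.11.15, pandas 2.3.3, numpy 2.4.6, scipy 1.17.1 and matplotlib 3.10.9 were used. The genes, pathway lists and marker lists were chosen with earlier results of these data known. The rule for naming took all 10 genes, every measured list gene past 2-fold, otherwise up to 3 of the most abundant per list, and each gene's strongest peak per list, peaks over a start and methylation regions. Not all strongest and start peaks are printed. Other genes and peaks named (low receptors, Csf2ra, Csf3r, Il7r, casein neighbours, genes without H3K4me3 peaks, Il3, Myc, Ccnd1 and Ccnd3, weaker or split peaks) were chosen after their values were seen. With 2 libraries no likeness between genes was computed. Other settings tried were pseudocounts, filters, scalings, windows and overlaps.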

Additional observations from a re-analysis of the deposited data

How the results depend on the processing

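No paired analysis was possible because each group held 1 library and no test was made. Csn2 stayed the 1 lower gene and Osm the 1 higher gene under every pseudocount, filter and scaling tried. Both had been chosen by these same values, so this is a description. With 0 vitamin C reads, no setting can change the sign of Csn2 and no scaling can move its value. A 1.5-fold bound gave 2 higher and 2 lower of the 10 genes and 8 higher and 6 lower of the pathway genes. Of 40 values of single genes under other pseudocounts and scalings 34 stayed within their counting interval or, for Csn2 under the scalings, were unchanged by construction. Osm did not change sign. The log2 change of Bcl2l1, 0.01, ranged from -0.0009 to 0.047, so its sign is not determined. The Csn2 log2 change ranged from -6.37 to -3.20 with the pseudocount and is no bound. With 5 RPKM as the minimum, 2 pathway genes were lower in place of 4, since Il6ra and Igf1 fell outside the filter. Peaks within the window numbered 325 with vitamin C and 386 untreated. A window of 10 kb held 159 with vitamin C and 186 untreated, one of 100 kb held 509 with vitamin C and 592 untreated, and the top 50% of each list held 158 with vitamin C and 207 untreated. Shared peaks over all marks came to 83.7% of vitamin C peaks and 70.5% of untreated peaks, and to 68.3% of vitamin C peaks and 57.8% of untreated peaks when 50% of both peaks had to overlap. Methylation regions numbered 42, against 23 within 10 kb and 73 within 100 kb. Windows of other widths hold fewer or more features by construction. With 1 library per group, depth sets the counting intervals alone, and variation between cultures was not measured.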
